A study of Mus musculus with 12 samples.

Results

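The microRNA (miRNA) genes with a mean log2 value of at least 6 over 12 hippocampal arrays were examined. They were chosen from the probe sets that carry 1 gene symbol made of Mir or Mirlet and a number, with the probe set of the highest mean kept for each gene. Of 300 miRNA genes measured this way, 93 reached the limit and 207 did not, among 19938 genes with a probe set of their own. The mean that chose these 93 genes used all 12 arrays, so that their levels are a description. Another 61 probe sets name a miRNA gene together with other genes, 22 of them with a mean of at least 6, and were not named.

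The study induced status epilepticus (SE), a seizure that does not end by itself, with pilocarpine, a muscarinic agonist, and asked how serum response factor (SRF), an activity-regulated transcription factor, takes part. RNA of whole hippocampus from 12 mice, 3 in each of 4 groups, was hybridised to Affymetrix Mouse Gene ST arrays, and no mouse was pooled with another. All mice were adult, listed as 7 to 10 weeks old, on a C57/Bl6 background, and had received tamoxifen. By the paper, tamoxifen was given from an age of 7 weeks and mice were analysed weeks later, so that the listed range begins before the age at analysis. All carried CaMKCreERT2, a tamoxifen-dependent Cre recombinase driven by the Camk2a promoter in glutamatergic forebrain neurons. Males and females were used.

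Heterozygous mice (Srf loxp/+; CaMKCreERT2), which had lost 1 Srf allele in these neurons, served as controls. They received either Ringer solution or pilocarpine, at 335 or 350 mg/kg, and spent 40 min in SE after the latter. Srf mutants (Srf loxp/loxp; CaMKCreERT2) had lost both alleles in these neurons, while other hippocampal cells kept theirs. A first mutant group received no pilocarpine, and the other received it and had seizures but did not reach SE, so that genotype and SE cannot be told apart where the pilocarpine effects of the genotypes are compared. In the labels the heterozygous mice appear as SRF-WT and the injected mutants as animals with seizure, and here the groups are named as in the study's own description. Mutants that reached SE were not analysed here.

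A miRNA gene is transcribed as a long primary transcript, from its own promoter or inside a host gene. In the nucleus Drosha and Dgcr8 cut out a hairpin, which Xpo5 exports and Dicer1 trims to a short duplex, and 1 strand of it guides an Ago protein to messenger RNAs that pair with its seed, bases 2 to 8. In neurons some miRNA genes, Mir132 and Mir212 among them, are transcribed in response to activity. The array was hybridised with DNA copied from total RNA that had been isolated with RNeasy columns, which retain long RNA better than short RNA. A miRNA probe set on it mostly sees primary transcripts, hairpins or host transcripts, and its value is not the amount of mature miRNA.

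The test was passed in at least 1 comparison by 7 of these genes, and their sequences are given here because several of them share seeds or mature strands. Hairpins were given in the RefSeq tables for 71 of the 93 genes and mature strands for 80. Among these 80, 12 seeds were found in more than 1 gene, and 22 genes shared a seed with another. Mir132 and Mir212 lay 203 bases apart on the plus strand of chromosome 11, at chr11:75173682-75173747 and chr11:75173388-75173478 (GRCm38.p6). Their 3p strands had the same seed and the same base at 17 of 22 positions, while their 5p strands had different seeds. In the hairpins the capitals mark the mature strands, and in the mature strands the seed.
Mir132 hairpin: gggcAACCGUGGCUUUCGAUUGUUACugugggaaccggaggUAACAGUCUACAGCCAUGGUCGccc
Mir212 hairpin: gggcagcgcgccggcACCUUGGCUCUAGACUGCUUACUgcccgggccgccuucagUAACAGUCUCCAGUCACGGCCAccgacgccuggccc
miR-132-3p: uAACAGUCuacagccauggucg
miR-212-3p: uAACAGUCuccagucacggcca
miR-132-5p: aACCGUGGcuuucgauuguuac
miR-212-5p: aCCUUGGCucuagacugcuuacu

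Mir128-1 (chr1:128202361-128202430, plus strand) and Mir128-2 (chr9:112118636-112118711, minus strand) lie on different chromosomes and give the same 3p strand. Their hairpins and 5p strands, not the 3p strand, tell them apart. Likewise Mir138-1 (chr9:122682876-122682974, plus strand) and Mir138-2 (chr8:94324311-94324381, plus strand) share the 5p strand and differ in hairpin and 3p strand. The hairpins of each pair are shown because only Mir128-1 and Mir138-2 passed the test.
Mir128-1 hairpin: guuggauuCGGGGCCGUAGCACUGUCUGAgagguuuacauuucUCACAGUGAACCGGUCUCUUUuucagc
Mir128-2 hairpin: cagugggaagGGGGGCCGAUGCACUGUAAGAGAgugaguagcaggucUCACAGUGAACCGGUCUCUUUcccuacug
miR-128-3p: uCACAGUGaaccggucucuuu
Mir138-1 hairpin: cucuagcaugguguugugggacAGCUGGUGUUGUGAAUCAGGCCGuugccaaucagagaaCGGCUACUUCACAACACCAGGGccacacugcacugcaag
Mir138-2 hairpin: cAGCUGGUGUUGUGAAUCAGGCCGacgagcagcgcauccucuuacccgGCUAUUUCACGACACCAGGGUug
miR-138-5p: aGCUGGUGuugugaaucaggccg

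The other genes that passed the test were Mir9-1 (chr3:88215598-88215686), Mir6516 (chr11:117077348-117077457) and Mir329 (chr12:109713481-109713577), all on the plus strand. Their 5p strands, or the 3p strand for Mir329, had seeds that no other of the 80 genes shared.
miR-9-5p: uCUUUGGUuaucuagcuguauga
miR-6516-5p: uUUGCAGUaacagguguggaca
miR-329-3p: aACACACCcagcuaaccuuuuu

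The limit of 6 is not a detection call, since no detection p-value was at hand, and it does not show that a gene was above background. The medians of the 12 arrays lay between 6.78 and 6.86, and 33 of the 93 genes had a mean below the lowest of these medians. A mean of at least 6 was found for 31% of the miRNA genes and for 71.4% of all probe sets with a gene. The means of the 93 genes ran from 6.05 to 9.42 with a median of 7.04, and 44 of them lay between 6 and 7. Just inside the limit were Mir487b at 6.05, Mir26b at 6.08 and Mir143 at 6.09. Just outside it were Mir323 at 5.9974, Mir193a at 5.99 and Mir504 at 5.99. The highest means belonged to Mir341 at 9.42, Mir346 at 8.98, Mir212 at 8.98, Mir568 at 8.76 and Mir328 at 8.66. Values of different probe sets are not on 1 scale of RNA amount, so that this order is an order of signals. Of the 93 genes, 90 are annotated as miRNAs and 3 (Mir100hg, Mir670hg and Mir99ahg) as long RNAs that carry a miRNA.

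The signal went with base composition. For 258 of the 300 miRNA genes a hairpin was given, and the share of G and C in it correlated with the mean level across genes, at a Spearman rho of 0.764 and a Pearson r of 0.727. This is a description over 258 genes measured on the same arrays. The median share of G and C was 57.1% for the 71 genes at or above the limit and 45.2% for the 187 below it. Mir568 went against this order, with 31.3% G and C and a mean of 8.76. Among the 71 genes the share of G and C also went with the difference between mutant and heterozygous controls (Spearman rho -0.413) and with that between mutants with and without pilocarpine (0.429, and 0.366 without array 3 of the injected mutants), 2 comparisons that share the mutant controls. For SE in heterozygous mice rho was -0.059. The part of base composition in these signals and differences was not tested.

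**Figure D1:**
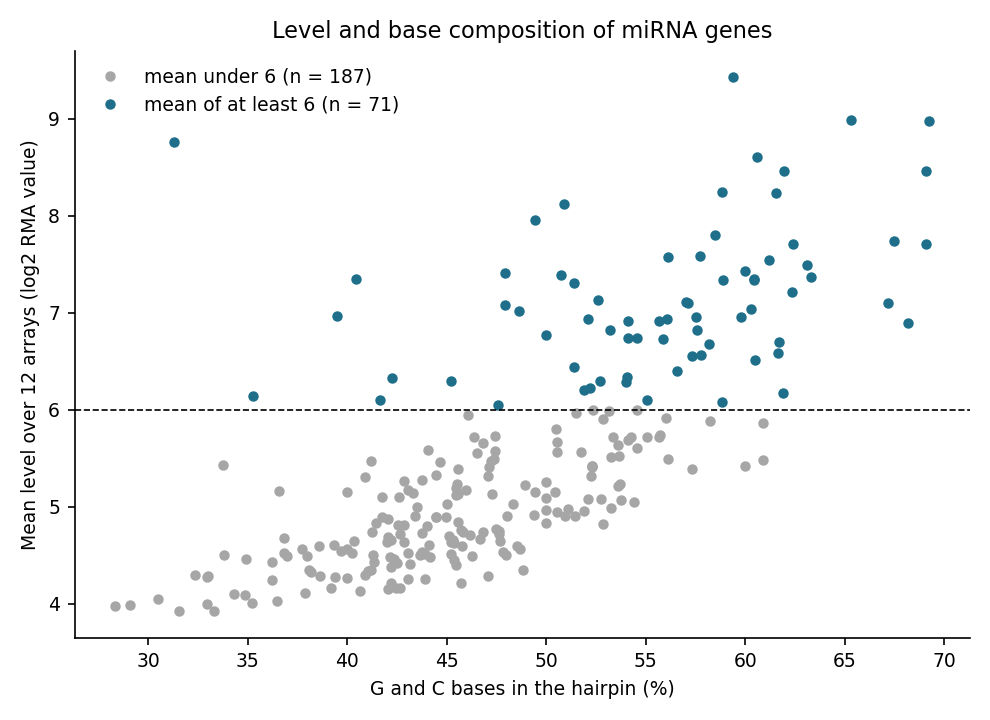
Mean level over 12 arrays (y axis, log2 RMA value) against the share of G and C bases in the hairpin (x axis, %) for 258 miRNA genes, 71 with a mean of at least 6 and 187 below, with the limit as a dashed line. Genes with more G and C had higher values, at a Spearman rho of 0.764, and Mir568, at 31.3% and 8.76, lies apart at the upper left.

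The arrays were compared with each other first. On array 3 of the mutants with pilocarpine, 92.5% of the 93 genes lay above their own mean over the 12 arrays, by a median of 0.18, while on the other 11 arrays this share ran from 25.8 to 60.2% and the median deviation from -0.073 to 0.022. Over all tested probe sets the median deviation of that array was -0.0072. Quantile normalization keeps the arrays alike in their distribution of values, so that this median cannot show whether the array deviated beyond the 93 genes. Over the 207 miRNA genes below the limit the median deviation of that array was -0.0051, so that these dimmer genes did not share the shift. Values in mutants with pilocarpine that this array moved are given with and without it. Among the 18 genes of the Dlk1-Dio3 region on chromosome 12, array 3 of the heterozygous controls was low for 17 of 18 genes, by a median of -0.15. The genotype and SE values of that region are given without that array as well. Xist, an RNA of female cells, was high on array 3 of the injected mutants (10.07) and of the heterozygous controls (9.92). It was also high on mutant controls 2 and 3 (10.12 and 10.61). On the remaining arrays, all SE arrays among them, Xist lay between 5.02 and 5.18, so that sex was not balanced between the groups. With Xist as a covariate the called genes were the same, and the part of sex in these deviations was not tested. Srf, the deleted gene, differed by -0.67 (log2) between mutant and heterozygous controls (standard error 0.052, adjusted p = 0.000263, limma), and all mutant arrays lay below all heterozygous arrays. Markers of excitatory neurons had means of 10.5 to 13.9 and those of astrocytes 9.43 to 11.98. Of 27 cell type markers none passed the test in the mutants with pilocarpine, in the genotype comparison or in the difference of the pilocarpine effects. This stands against 1.84%, 0.12% and 3.59% of all probe sets. In SE none was higher and 3 were lower, against 5.08% and 6.93% of all probe sets. The lower ones were Cx3cr1 (-0.19) and P2ry12 (-0.23) of microglia and Tek (-0.45) of endothelium. The other markers of these types did not pass, with Csf1r at 0.01, Aif1 at -0.06, Flt1 at 0.17, Pecam1 at -0.05 and Cldn5 at -0.10. The mean over 4 microglial markers ran from 8.48 to 8.53 in heterozygous controls and from 8.35 to 8.41 in SE, and that over 4 endothelial markers from 8.59 to 8.75 and from 8.25 to 8.76. Their part in the results was not tested. In bulk tissue, fewer cells of a type and less RNA per cell cannot be told apart.

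The first comparison asked which miRNA genes change when heterozygous mice are in SE for 40 min. Mir212, Mir132, Mir128-1 and Mir329 were higher, and Mir9-1, Mir138-2 and Mir6516 were lower, at an adjusted p under 0.05 in limma over all 23410 probe sets with a gene. Mir212, Mir132 and Mir128-1 rose by 2.6-fold to 3.14-fold, and the other 4 genes changed by less. The 4 higher genes are to be read against 5.08% of all tested probe sets that were higher, and the 3 lower genes against 6.93% that were lower. In all, 7 of 93 genes (7.53%) passed the test against 12% of all probe sets. The groups did not overlap for 11 genes that were higher and 12 that were lower in SE, against 10.6% and 19.8% of all probe sets. Neither share of miRNA genes past the test was above that of the array as a whole. The median log2 difference was -0.054 over the 93 genes and -0.026 over all probe sets, and 81 of the 93 genes differed by less than 0.25. The median of the 93 genes was -0.019 without SE array 1, against -0.024 over all probe sets, and -0.030 without heterozygous control 1.

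Mir212 and its neighbour Mir132 are processed from a shared primary transcript that CREB and neuronal activity are known to induce, and in neurons they act on dendrites, spines and synaptic strength. Mir212 had values of 8.30, 8.33 and 8.37 in heterozygous controls and of 9.93, 10.03 and 10.00 in SE. All 3 arrays of SE lay more than 1.5 log2 units above all 3 control arrays. The log2 difference was 1.65 (standard error 0.06, adjusted p = 2.62e-09, limma), a 3.14-fold rise.

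Mir132 had values of 6.10, 6.34 and 6.24 in heterozygous controls and of 7.30, 7.74 and 7.94 in SE. SE and control arrays were apart, and the spread within the SE group was wider than that of Mir212, with an SD of 0.323 against 0.054 (n = 3). The log2 difference was 1.43 (standard error 0.13, adjusted p = 1.01e-05, limma), or 2.7-fold. Of the genes on either side, Smg6, an mRNA decay factor in front of the pair, was higher in SE by 0.33 (adjusted p = 0.00202, limma), while Hic1 and Rtn4rl1 differed by -0.05 and 0.06 and did not pass the test. Mir132 and Mir212 thus had larger differences than these 3 neighbours.

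Mir128-1 and Mir128-2 encode miR-128, one of the most abundant miRNAs of the brain, which dampens neuronal excitability, so that mice without it have fatal seizures. Mir128-1 had values of 6.07, 6.28 and 6.09 in heterozygous controls and of 7.87, 7.23 and 7.49 in SE. All SE arrays lay above all control arrays, and the log2 difference was 1.38 (standard error 0.19, adjusted p = 0.000358, limma). Its hairpin lies within R3hdm1 on the same strand, and R3hdm1 had 11.01, 11.01 and 10.96 in controls and 11.12, 11.05 and 11.23 in SE. The log2 difference of R3hdm1 was 0.14 (adjusted p = 0.192, limma), so that the probe set of the hairpin rose without a called rise of the host. Mir128-2 had 6.34, 6.17 and 6.17 in controls and 6.40, 6.46 and 6.45 in SE. It did not pass the test, with a log2 difference of 0.21 (95% confidence interval 0.04 to 0.37, adjusted p = 0.102, limma), though it passed with array weights and after a further quantile normalization, and its host Arpp21 differed by 0.21 as well (adjusted p = 0.178, limma).

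Mir329 belongs to the large miRNA cluster of the imprinted Dlk1-Dio3 region, several members of which are induced by neuronal activity. It had values of 6.28, 6.12 and 5.98 in controls and of 6.81, 6.42 and 6.40 in SE. The groups did not overlap, but the lowest SE array lay close to the highest control array. The log2 difference was 0.41 (standard error 0.11, adjusted p = 0.0221, limma), and it missed the threshold without heterozygous control 2 (adjusted p = 0.065, limma), control 3 (adjusted p = 0.0989) or SE array 1 (adjusted p = 0.0589).

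Mir9-1 is one of the genes for miR-9, which promotes neuronal differentiation. It had values of 7.36, 7.72 and 7.27 in heterozygous controls and of 6.84, 6.63 and 6.94 in SE. All SE arrays lay below all control arrays, and the log2 difference was -0.65 (standard error 0.12, adjusted p = 0.00325, limma). Mir9-3, another gene for miR-9, had a mean of 5.13, below the limit, and differed by -0.04 in SE (adjusted p = 0.627, limma). Mir138-2 is one of the genes for miR-138, which is found in dendrites and limits the size of spines. It had 7.59, 7.87 and 7.55 in controls and 7.20, 6.93 and 6.89 in SE, again without overlap. The log2 difference was -0.66 (standard error 0.15, adjusted p = 0.0104, limma), and it missed the threshold without heterozygous control 2 (adjusted p = 0.0515) or SE array 3 (adjusted p = 0.0501). Its host Nup93, a nuclear pore protein gene, differed by 0.11 (adjusted p = 0.549, limma). Mir138-1, with the same mature 5p strand, had 6.65, 6.72 and 6.76 in controls and 6.64, 6.48 and 6.67 in SE, and these groups overlapped. It differed by -0.12 (95% confidence interval -0.30 to 0.07, adjusted p = 0.464, limma).

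Mir6516, which lies within the small nucleolar RNA host gene Snhg20, had 8.35, 8.48 and 8.33 in controls and 7.87, 8.04 and 7.83 in SE. No SE array reached the lowest control array, and the log2 difference was -0.47 (standard error 0.10, adjusted p = 0.009, limma).

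**Figure D2:**
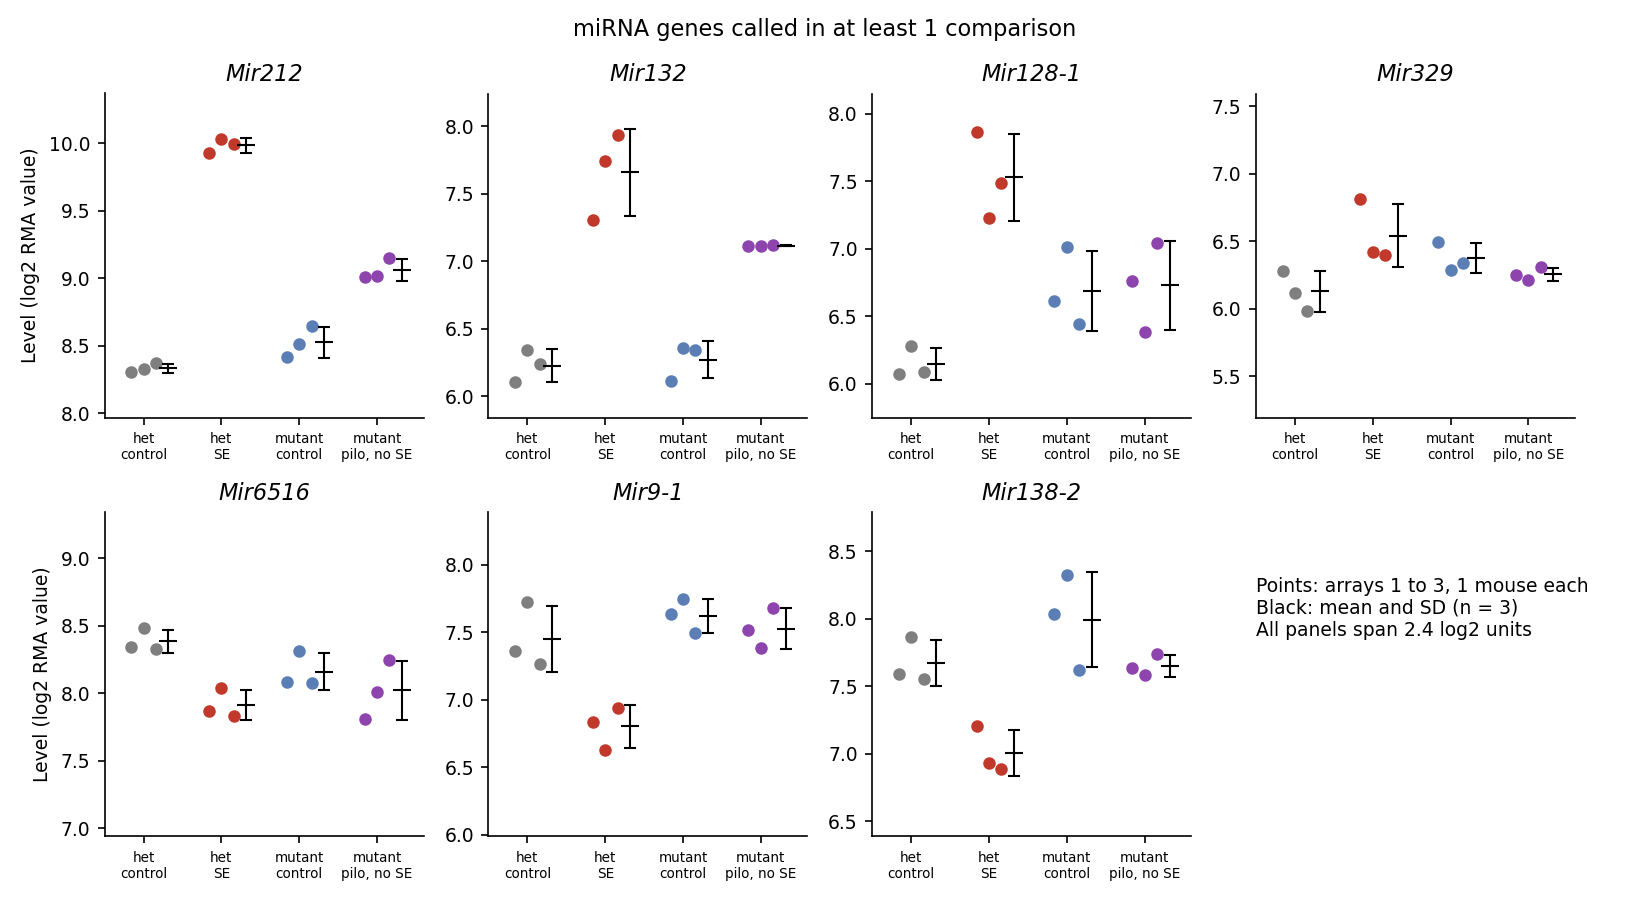
Level (y axis, log2 RMA value) on each array of the 7 miRNA genes that passed the test in at least 1 comparison, by group (x axis), with points for single mice and black marks for the mean and SD of 3 mice, all panels spanning the same number of log2 units. Mir212 had 3 SE arrays between 9.93 and 10.03 and mutant pilocarpine arrays between 9.01 and 9.15, whereas the SE arrays of Mir128-1 lay above all its other arrays.

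The second comparison asked what pilocarpine without SE does in Srf mutants. Mir212 and Mir132 were higher and no miRNA gene was lower, so that 2 of 93 genes (2.15%) passed the test against 1.84% of all probe sets, 0.871% higher and 0.965% lower. At an unadjusted p under 0.05 there were 5 higher and 6 lower genes, 11.8% of the 93 against 14.8% of all probe sets. The groups did not overlap for 4 genes that were higher and 5 that were lower, against 7.04% and 11.4% of all probe sets. Mir212 had values of 8.42, 8.51 and 8.65 in mutant controls and of 9.01, 9.02 and 9.15 with pilocarpine. All injected mutants lay above all mutant controls, and the log2 difference was 0.54 (standard error 0.06, adjusted p = 0.000755, limma). Without array 3 of the mutants with pilocarpine it was 0.49 (adjusted p = 0.00426, limma). Mir132 had 6.11, 6.36 and 6.34 in mutant controls and 7.11, 7.11 and 7.12 with pilocarpine. All injected mutants lay above all mutant controls and below all heterozygous mice with SE. The log2 difference was 0.84 (standard error 0.13, adjusted p = 0.0056, limma), and 0.84 without array 3 (adjusted p = 0.0211, limma).

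The other 5 genes that changed in SE did not pass the test in the mutants. Mir128-1 had 6.61, 7.01 and 6.44 in mutant controls and 6.76, 6.39 and 7.04 with pilocarpine. These groups overlapped, and the log2 difference was 0.04 (95% confidence interval -0.37 to 0.45, adjusted p = 0.954, limma). Mir9-1 had 7.63, 7.74 and 7.49 in mutant controls and 7.52, 7.38 and 7.68 with pilocarpine, with overlapping groups and a difference of -0.10 (95% confidence interval -0.36 to 0.17). Mir138-2 differed by -0.34 (adjusted p = 0.30, limma), Mir6516 by -0.14 and Mir329 by -0.12. Without array 3 of the injected mutants, Mir128-1 differed by -0.12, the opposite sign, Mir9-1 by -0.17, Mir138-2 by -0.39, Mir6516 by -0.25 and Mir329 by -0.15, none past the test. The median difference of the 93 genes was 0.042, and -0.039 without array 3 of the injected mutants, so that its sign rested on that array. Over all probe sets the medians were -0.0036 and -0.0054.

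**Figure D3:**
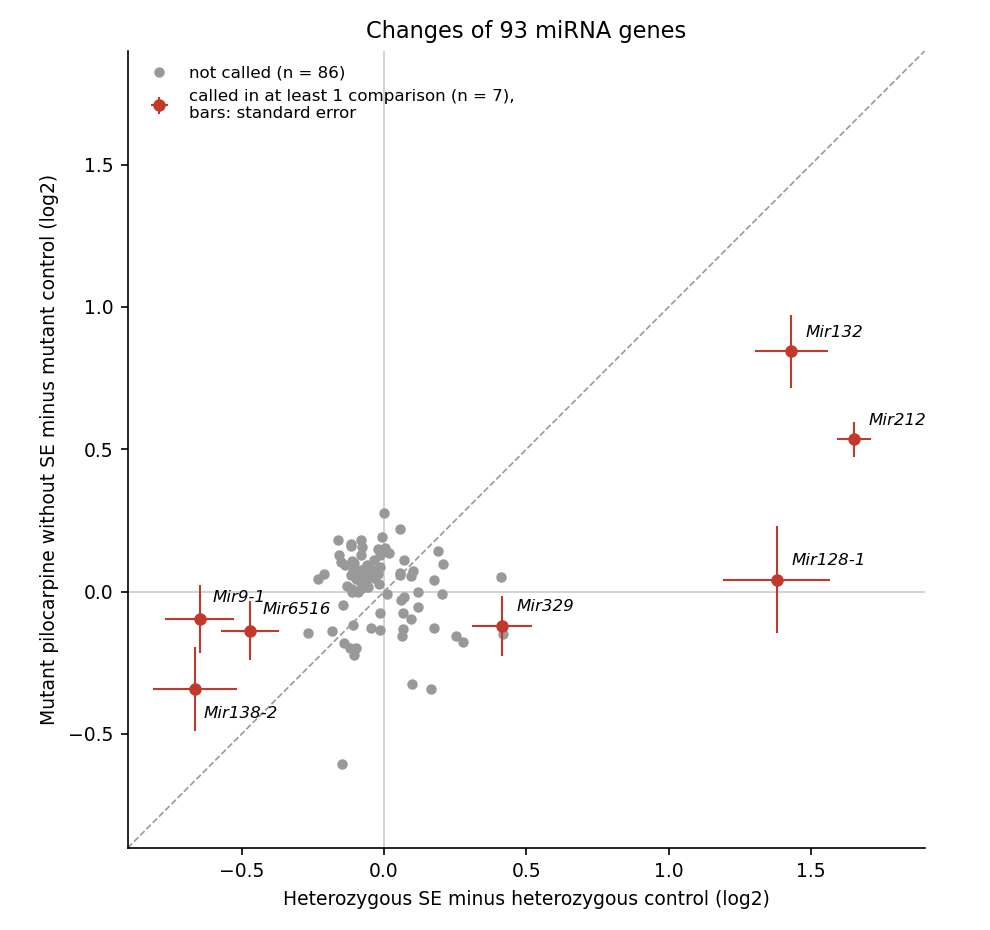
Log2 difference of 93 miRNA genes between heterozygous SE and heterozygous controls (x axis) and between mutants with pilocarpine without SE and mutant controls (y axis), with red points and standard errors for the 7 genes that passed the test and a dashed line of equal differences. Mir212, at 1.65 and 0.54, and Mir132, at 1.43 and 0.84, lie high on both axes, and Mir128-1, at 1.38 and 0.04, on the x axis only.

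The third comparison asked whether the pilocarpine effects differ between the genotypes, as the effect in mutants minus that in heterozygous mice. Mir212 and Mir128-1 had smaller effects in mutants and no gene had a larger one, so that 2 of 93 genes passed the test against 3.59% of all probe sets, 1.47% with a higher and 2.12% with a lower value. At an unadjusted p under 0.05 there were 5 higher and 8 lower genes, 14.0% of the 93 against 15.8% of all probe sets. The difference was -1.12 for Mir212 (standard error 0.09, adjusted p = 9.08e-06, limma) and -1.16 without array 3 of the injected mutants. For Mir128-1 it was -1.34 (standard error 0.27, adjusted p = 0.0142, limma) and -1.50 without that array. Mir128-1 also had higher values in mutant than in heterozygous controls, 6.44 to 7.01 against 6.07 to 6.28, by 0.54, which did not pass the test (adjusted p = 0.476, limma). R3hdm1, its host, had a difference of the effects of 0.01. The difference for Mir132 was -0.59 (95% confidence interval -0.98 to -0.20) and did not pass the test (adjusted p = 0.109, limma), nor did those of Mir329 (-0.53, adjusted p = 0.0762) and Mir9-1 (0.55, adjusted p = 0.112). With animal number as a block in the fit Mir132 and Mir329 did pass, and Mir132 also passed without SE array 1. The mutants had no SE, so that none of these values separates loss of Srf from absence of SE.

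The fourth comparison asked about genotype without pilocarpine. No miRNA gene passed the test in limma, and the lowest adjusted p was 0.405, against 0.12% of all probe sets that passed, 0.0384% higher and 0.0812% lower. At an unadjusted p under 0.05 there were 14 higher and 2 lower genes, 17.2% of the 93 against 8.73% of all probe sets. No overlap between the controls was seen for 8 genes that were higher and 10 that were lower in mutants, against 6.1% and 7.46% of all probe sets. The largest difference was that of Mir382, with 6.97, 7.17 and 6.36 in heterozygous and 7.43, 7.52 and 7.49 in mutant controls, a log2 difference of 0.64 (95% confidence interval 0.24 to 1.04, adjusted p = 0.405, limma), or 0.41 without heterozygous control 3. All mutant controls lay above all heterozygous controls for Mir382. Mir134, which limits spine growth and is known for the protection from seizures that its silencing gives, had 8.49, 8.77 and 8.07 against 8.75, 8.995 and 8.84. These groups overlapped, and the difference was 0.42 (adjusted p = 0.489, limma), or 0.23 without heterozygous control 3. For the pair, Mir212 differed by 0.19 (95% confidence interval 0.06 to 0.32, adjusted p = 0.422, limma) and Mir132 by 0.04 (95% confidence interval -0.23 to 0.32, adjusted p = 0.951, limma).

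Mir382 and Mir134 lie in the Dlk1-Dio3 region of chromosome 12, an imprinted stretch in which long RNAs of the maternal chromosome, Meg3, Rian and Mirg, carry many miRNA hairpins. Of 53 listed miRNA genes of the region 40 were measured and 18 reached the limit. In SE 1 of these 18, Mir329, was higher and none lower, against 5.08% and 6.93% of all probe sets, with a median of 0.070, or -0.0038 without heterozygous control 3 and 0.12 without control 2. Mir411, with a mean below the limit, was also higher, by 0.23. Mir679 had 6.87, 6.87 and 6.35 in heterozygous controls and 7.53, 6.78 and 7.04 in SE, with overlap and a difference of 0.42 (adjusted p = 0.18, limma), or 0.25 without heterozygous control 3 and 0.21 without SE array 1. Mir341 differed by 0.28 and Mir665 by 0.20, neither past the test, and Mir341 by 0.13 without that control and 0.10 without that SE array. Between mutant and heterozygous controls 16 of the 18 genes, and 36 of all 40, had a positive difference, with a median of 0.11 over the 18. Without heterozygous control 3 these were 14 and 35, with a median of 0.069, and without mutant control 2 they were 13 and 32. Leaving out mutant control 3 instead gave a median of 0.18. Between mutants with and without pilocarpine 7 of the 18 and 10 of the 40 were positive, with a median of -0.037. Without array 3 of the injected mutants 3 of the 18 and 6 of the 40 were positive, with a median of -0.11, and the median was -0.096 without mutant control 3 and 0.0052 without array 2 of the injected mutants. Both of these comparisons used the same mutant controls, and with all 12 arrays in the fit none of the 40 genes passed the test in either. Mir382 differed by -0.61 between mutants with and without pilocarpine (adjusted p = 0.125, limma). It was lower past the threshold without heterozygous control 3 in the fit, and also with only the groups compared in the fit. Mir541, below the limit, was lower past the threshold without mutant control 3. Neighbouring hairpins of 1 transcript are not independent measurements.

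**Figure D4:**
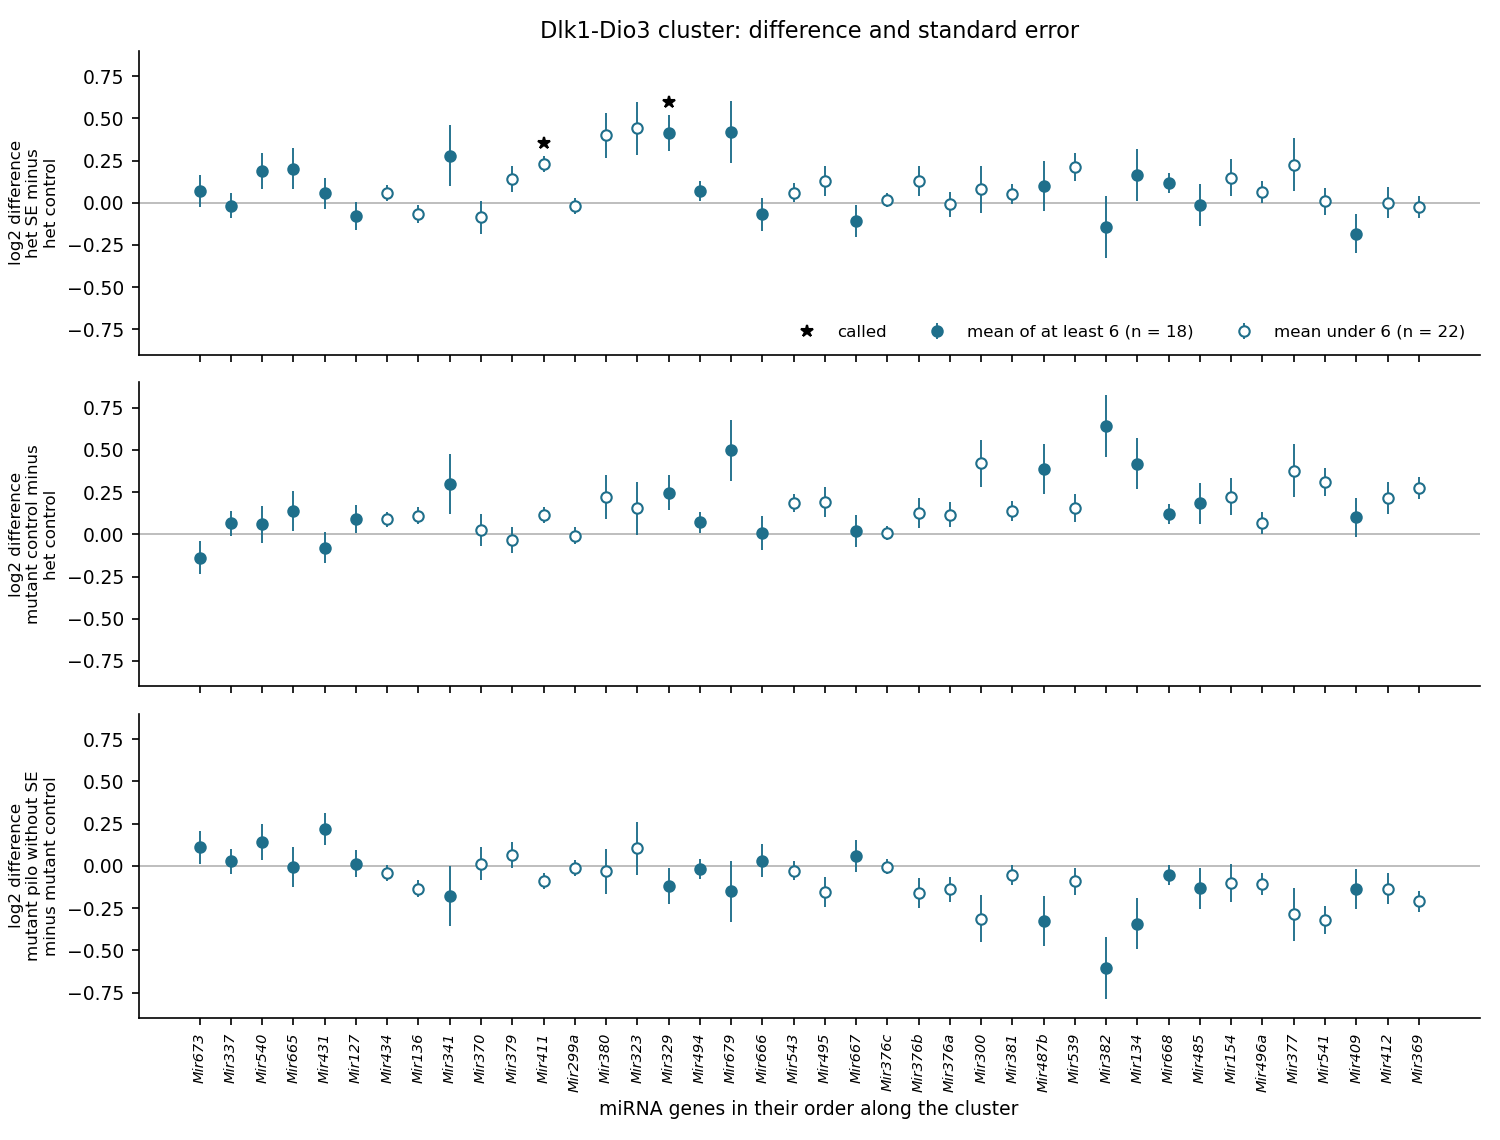
Log2 difference and standard error (y axis) of 40 miRNA genes of the Dlk1-Dio3 region in their order along the chromosome (x axis), for SE in heterozygous mice (top), genotype without pilocarpine (middle) and pilocarpine in mutants (bottom), with filled points for 18 genes with a mean of at least 6 and stars for genes past the test. Stars stand over Mir411 and Mir329 in the top panel only, and 36 of 40 points of the middle panel lie above 0.

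Among the long RNAs of the region, Rian, whose span holds Mir341, had 6.56, 6.91 and 6.51 in heterozygous controls and 8.44, 7.24 and 7.75 in SE. All SE arrays lay above all controls, and Rian was higher in SE by 1.15 (standard error 0.25, adjusted p = 0.00895, limma). In mutants it had 7.13, 7.36 and 6.61 without and 6.81, 6.83 and 6.99 with pilocarpine, which overlapped. Meg3 differed in SE by 0.26 (adjusted p = 0.355, limma), and the protein-coding genes of the region, Dlk1, Dio3 and Rtl1, by -0.12, -0.20 and 0.07, none past the test.

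Of the 93 genes, 54 lay within the span of another gene, 31 of them on the same strand, 3 on the opposite strand and 20 in a gene whose strand was not given. For 27 of the 31 a host gene was measured, 24 hosts in all, and the tables did not tell exon from intron. In SE 1 of the 24 hosts was higher, Rian, and 1 lower, Mcm7, against 5.08% higher and 6.93% lower over all probe sets. Mcm7, which encodes a subunit of the replicative helicase and holds Mir25, differed by -0.20 (adjusted p = 0.039, limma). The difference of miRNA gene and host lay within 0.25 of each other for 23 of the 27, with medians of -0.092 and -0.016. Since 81 of the 93 genes differed by less than 0.25 in SE, this closeness does not show that gene and host moved together. The exceptions included Mir128-1 in R3hdm1, with 1.38 against 0.14, Mir138-2 in Nup93, with -0.66 against 0.11, and Mir341 in Rian, with 0.28 against 1.15. In each of these a probe set for the hairpin and 1 for the host moved by unequal amounts.

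**Figure D5:**
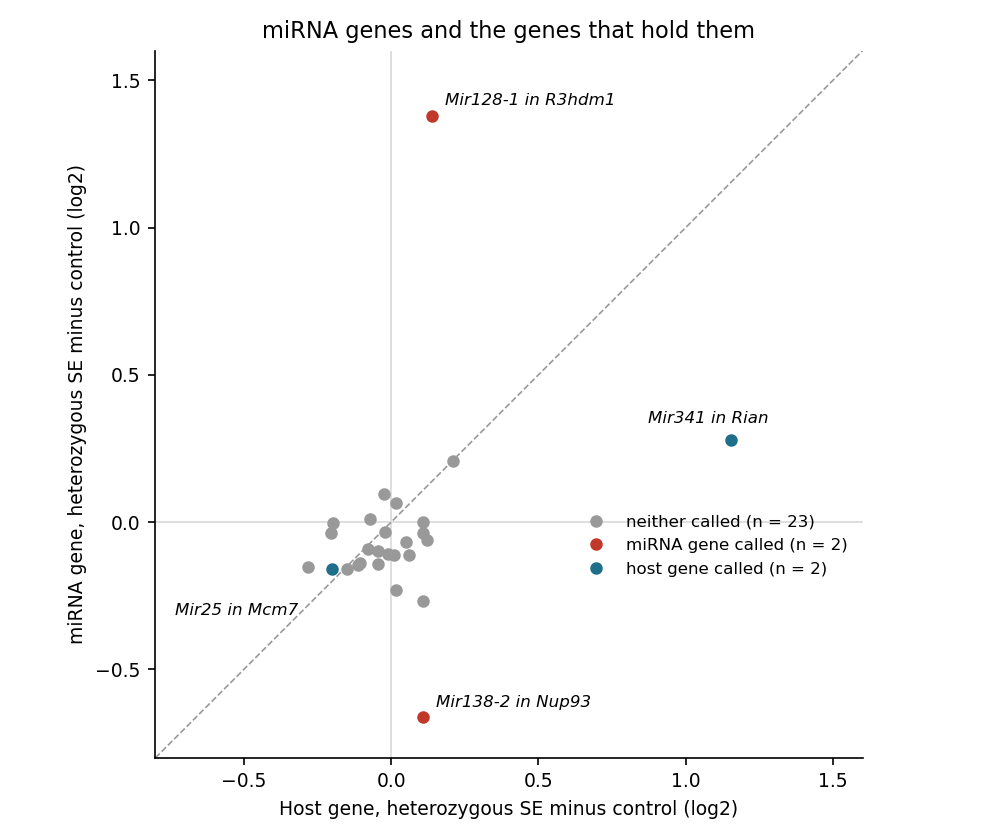
Log2 difference between heterozygous SE and controls of 27 miRNA genes (y axis) and of the gene that holds each on the same strand (x axis), with a dashed line of equal differences. Of the 27, 23 lie within 0.25 of that line, while Mir128-1 lies above it at 1.38 against 0.14, Mir138-2 below it at -0.66 against 0.11, and Mir341 below it at 0.28 against 1.15.

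Lists of miRNA genes taken from general knowledge were counted in the same way. They were chosen with earlier results of these data known, so that their counts are a description. Of 27 genes tied to neuronal activity or seizures, 22 were measured and 15 reached the limit, of which 3 were higher (Mir212, Mir132, Mir128-1) and 2 lower (Mir138-2, Mir9-1) in SE, with a median of -0.014. These counts, and those of the next lists, stand against 5.08% higher and 6.93% lower over all probe sets in SE. Of 15 genes tied to SRF, 10 were measured and 3 reached the limit. Mir212 and Mir132 were higher in SE and in mutants with pilocarpine (0.871% over all probe sets), while Mir143 differed by -0.01 and 0.19. In each of these comparisons 8 of the 10 did not pass the test. Of 30 brain-enriched genes 25 were measured and 16 reached the limit, with Mir128-1 higher, Mir9-1 and Mir138-2 lower and a median of -0.060 in SE. Among those that missed the threshold, Mir137, a regulator of synapse genes, had 6.27, 6.15 and 6.21 in controls and 6.62, 6.48 and 6.28 in SE. All SE arrays lay above all controls by a small margin, and the difference was 0.25 (adjusted p = 0.0563, limma). Of the 11 let-7 genes measured, Mirlet7e and Mirlet7i reached the limit and differed by -0.27 and -0.10 in SE, neither past the test. The 5 relatives of the Sfmbt2 cluster that were measured lay below the limit.

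The genes that make and use miRNAs changed by small amounts. Of 40 listed genes 37 were measured, and in SE 5 were higher, 2 lower and 30 not past the test, against 5.08% higher and 6.93% lower over all probe sets, with a median of 0.027. The higher ones were Ddx5 (0.39, adjusted p = 0.000183, limma) and Ddx17 (0.32, adjusted p = 0.0103), helicases of the Drosha complex, Tnrc6c (0.36, adjusted p = 0.000603), a partner of Ago proteins in silencing, Trim71 (0.31, adjusted p = 0.00492) and Ago2 (0.16, adjusted p = 0.0399), which carries the guide strand. The lower ones were Gemin4 and Mov10, both by -0.19. Drosha and Dgcr8 differed by -0.02 and -0.00, and Dicer1 by 0.22 (adjusted p = 0.051, limma). In mutants with pilocarpine Srrt was higher by 0.25 and Prkra lower by -0.36, 1 gene each way, against 0.871% and 0.965% of all probe sets. The pilocarpine effect was smaller in mutants for Tnrc6c (-0.33) and Ddx5 (-0.30), against 2.12% of all probe sets, and no gene of the list passed the test for genotype.

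Messenger RNAs reported as targets of miR-132 did not move in 1 direction. Of 18 listed 16 were measured, and in SE Btg2 (3.88), Nr4a2 (1.78) and Foxo3 (0.24) were higher and Sirt1 (-0.46) was lower, with a median of 0.032 and 12 not past the test, against 5.08% higher and 6.93% lower over all probe sets. Btg2 and Nr4a2 are themselves immediate early genes, and Sirt1 encodes a deacetylase. In mutants with pilocarpine Btg2 (0.65) and Nr4a2 (0.63) were higher and none was lower, against 0.871% and 0.965%.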

How the data were processed

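The authors scanned the arrays and processed them with Affymetrix Expression Console, and they deposited robust multiarray average (RMA) values on a log2 scale, so that background correction, quantile normalization and probe summary had been done. Per the labels, total RNA was isolated with the RNeasy mini kit. No counts lie behind array values, and their number, 3 per group, limits the precision. The median SD within a group over the 93 genes was 0.106. Replicates are separate animals.

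Gene names were taken from the platform annotation. The miRNA genes and gene lists were chosen with earlier results of these data known. limma 3.58.1 in R 4.3.3 was fitted to the 23410 probe sets with a gene over all 12 arrays with a mean per group, lmFit, eBayes and Benjamini-Hochberg adjustment, and the threshold was an adjusted p under 0.05. Tables were joined in Python 3.11.15 with pandas 2.3.3 and drawn with matplotlib 3.10.9. The fit was tested on simulated data. Named were Mir132 and Mir212, all called genes, the 5 highest, the 3 on each side of the limit and up to 4 of each list with the largest change in SE, with host and neighbour genes. Mir128-2, Mir138-1, Mir9-3, Mir382, Mir134, Mir411, Mir541, Mir25 and Mcm7 were named after their values were seen, as was the base composition. Hairpins, mature strands and coordinates come from RefSeq (GRCm38.p6). A planned search of promoters for CRE and CArG motifs was not carried out, since the promoter table listed none of the 7 called genes. Alternatives covered the variance trend, scaling, array weights, arrays and probe sets in the fit, the level limit, Xist as a covariate, animal number as a block and each array left out in turn. Animal numbers recur in all groups. The deviations of same-numbered arrays had a correlation over 0.1 in 5 of 18 pairs, so that no steady pairing was seen.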

Additional observations from a re-analysis of the deposited data

Results flagged for a closer look

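The effect of pilocarpine differed between the genotypes for 2 of the 93 miRNA genes, by the test of the difference itself in limma. For Mir212 the effect in mutants minus that in heterozygous mice was -1.12 (adjusted p = 9.08e-06, limma), and for Mir128-1 it was -1.34 (adjusted p = 0.0142, limma). Genotype and SE cannot be told apart in both.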

How the results depend on the processing

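Of the 11 called differences of single genes, those of Mir212 (3), Mir132 (2), Mir128-1 (2), Mir9-1 and Mir6516 kept their direction and stayed past the threshold in all 22 alternatives run, and no value reversed. Mir138-2 and Mir329 in SE lost their calls without the arrays named above, and Mir329 also with only the groups compared in the fit (adjusted p = 0.0663, limma). A limit of 7 left 49 genes, with 1 higher in SE, 1 higher in mutants with pilocarpine and 1 with a smaller effect in mutants. With only the groups compared, 5 were lower in SE and 1, Mir382, was lower in mutants with pilocarpine. With array weights 5 were lower and 6 higher in SE (Mir100hg and Mir128-2 added). A further quantile normalization also gave 6 higher (Mir128-2 and Mir137 added). Correlations of same-numbered arrays ran from -0.312 to 0.323, which shows no steady pairing and does not exclude one. With a replicate block 4 genes had a smaller effect in mutants (Mir132 and Mir329 added). Leaving out each array in turn gave 3 to 6 higher and 2 to 4 lower in SE, 2 to 2 higher and 0 to 1 lower in mutants with pilocarpine (1 without heterozygous control 3), 0 to 0 either way for genotype, and 0 to 1 larger (1 without mutant pilocarpine array 2) and 2 to 3 smaller effects in mutants. The causes were not tested.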
